A study of Mus musculus with 6 samples.

Results

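Olig1, Olig2 and Olig3 encode the Olig family of basic helix-loop-helix (bHLH) transcription factors. They were chosen by name: every probe set of the array that the platform annotation pairs with 1 of these 3 symbols was taken. Each gene had 1 probe set, so the family was read by 3 of the 34945 probe sets with a single symbol, and by 3 of 18193 genes. The measurements came from 6 Affymetrix 3' expression arrays, 1 per culture of neuralized embryoid bodies, which are floating aggregates of mouse embryonic stem cells (ESCs) led towards neural fates. All 6 cultures were made from an ESC line in which the Rosa26 promoter drives a Gli1-FLAG transgene in every condition, so the control cultures carried it too. After 2 days in suspension, 3 cultures (RA) received 500 nM all trans retinoic acid for 3 days, and 3 cultures (Ag1.3) received 500 nM all trans retinoic acid and 50 nM of the Smo agonist Ag1.3 for the same 3 days. The series' design describes the triplicates as parallel cultures that share a number, which makes 3 pairs from 1 cell line.

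Hedgehog ligand from the floor plate and notochord acts through the membrane protein Smoothened and the Gli factors, and different amounts of signal give different ventral progenitor domains. Olig2 marks the domain that makes motor neurons, where it is needed for motor neuron formation and represses genes of neighbouring domains, and later it acts in the oligodendrocyte lineage. Olig1 lies next to Olig2 and is known mainly for its role in oligodendrocyte maturation. Olig3 is known mainly from dorsal progenitors, where it is needed for several classes of dorsal interneurons, and from ventral cells next to the floor plate. The comparison of RA with Ag1.3 asks how stimulation of the hedgehog pathway changes expression in such neural cultures.

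The Olig family split. Olig1 and Olig2 rose in all 3 pairs with Ag1.3, and Olig3 did not pass the test, with a 95% interval of 0.884 to 1.16-fold. The arrays read RNA of whole aggregates, in which a change in the number of cells of a type and a change in RNA per cell cannot be told apart.

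The stretches just upstream of Olig2 and Olig3 are printed because these genes gave the largest and the smallest change of the family. Each line holds the 250 bases before the annotated start in RefSeq, build GRCm38.p6, plus strand, at chr16:91225300-91225549 for Olig2 and chr10:19356289-19356538 for Olig3. Capitals mark TATAAA and CCAAT, searched on both strands, where ATTGG is CCAAT on the other strand. No capitals overlap.
Olig2: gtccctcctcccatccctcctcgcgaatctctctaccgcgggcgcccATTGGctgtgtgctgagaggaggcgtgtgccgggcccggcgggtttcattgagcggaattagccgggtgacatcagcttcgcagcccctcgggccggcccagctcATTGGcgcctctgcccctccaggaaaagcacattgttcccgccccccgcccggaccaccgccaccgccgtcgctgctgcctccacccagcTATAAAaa
Olig3: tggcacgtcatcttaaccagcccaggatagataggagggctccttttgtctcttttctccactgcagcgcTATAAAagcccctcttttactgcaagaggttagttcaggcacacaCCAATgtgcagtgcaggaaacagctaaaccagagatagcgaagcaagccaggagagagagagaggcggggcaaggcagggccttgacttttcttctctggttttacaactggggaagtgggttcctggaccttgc

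The Olig2 stretch had 66.8% G and C and 22 CpG dinucleotides. The Olig3 stretch had 51.6% and 4, and the medians over all 32851 such windows were 52.4% and 6. TATAAA stood once in each stretch, from position -8 in Olig2 and from -180 in Olig3 counted from the annotated start, and 12.4% of all windows held it. CCAAT stood 2 times in Olig2 and 1 time in Olig3, against 33.8% of all windows with a match. CANNTG, the E-box that bHLH factors bind, was found once in Olig3, at position -30, and not in Olig2, with 66.2% of windows holding it. The Gli consensus TGGGTGGTC (0.225% of windows) and the retinoid receptor motif AGGTCA (14% of windows) had no match in either stretch on either strand. These searches describe letters in 250 bases only.

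Olig2, the factor of motor neuron progenitors, read 17.0, 8.51 and 24.7 in RA replicates 1, 2 and 3. With Ag1.3 it read 1213, 777 and 499 in replicates 1, 2 and 3. All Ag1.3 arrays lay above all RA arrays, and the lowest Ag1.3 value was 20.2 times the highest RA value. The RA values were close to background: 18 readings of 3 bacterial Trp control probe sets that had no spiked target ran from 4.02 to 20.7, and RA replicates 1 and 2 of Olig2 lay inside that range. On the log2(intensity + 16) scale, where low values are damped, the change was 5.22, 5.02 and 3.66 in pairs 1, 2 and 3. The SD of these 3 changes was 0.85. The mean change was 4.63 with SE 0.30, a 24.8-fold rise with a 95% interval of 14.6 to 42.1-fold, and adjusted p was 0.00753 in limma's test with the pair as a block. Ratios of the deposited intensities were larger, at 71.5, 91.4 and 20.2 in pairs 1, 2 and 3, and the RA readings of pairs 1 and 2 were within the Trp range.

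Olig1, the neighbouring family member, read 43.6, 70.7 and 86.2 in RA replicates 1, 2 and 3, all above the Trp control readings. With Ag1.3 it read 697, 769 and 733. The groups did not overlap, and the lowest Ag1.3 array was above the highest RA array by the distance from 86.2 to 697. The change was 3.58, 3.18 and 2.87 on the log2 scale in pairs 1, 2 and 3. The mean was 3.21 with SE 0.14, a 9.26-fold rise with a 95% interval of 7.22 to 11.9-fold, and limma's adjusted p was 0.00293.

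Olig3, the dorsal member, read 39.4, 27.4 and 26.1 in RA replicates 1, 2 and 3 and 39.3, 25.8 and 29.2 with Ag1.3. The groups overlapped throughout, and replicate 1 was the highest of each. All 6 values lay above the highest Trp control reading but not far from it. The change was -0.0018, -0.055 and 0.10 in the 3 pairs, with a mean of 0.015, SE 0.077 and adjusted p = 0.953 in limma's test. The 95% interval ran from 0.884 to 1.16-fold, so a change as large as that of Olig1 or Olig2 lay outside it, on a scale that damps a signal of this size.

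**Figure D1:**
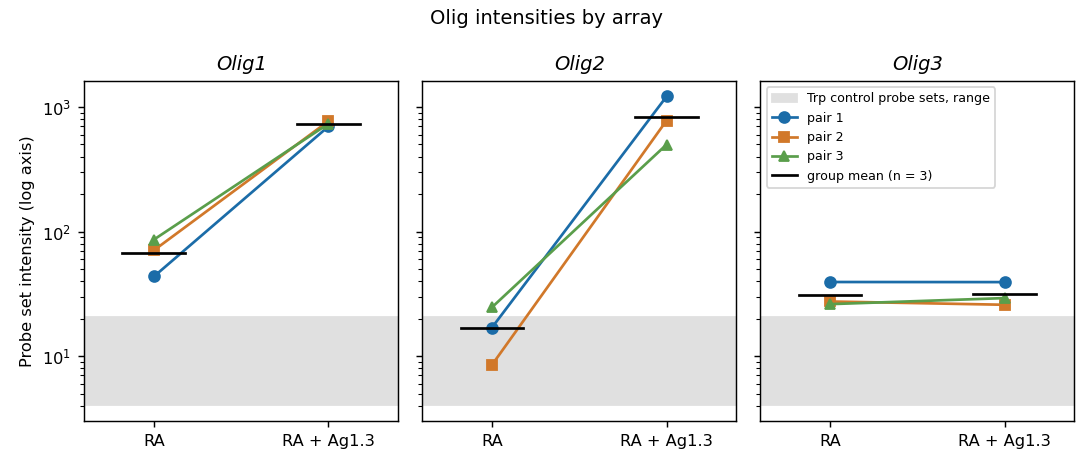
Probe set intensity (log axis) of Olig1, Olig2 and Olig3 in the 6 arrays, with a line joining the RA and Ag1.3 cultures of a pair, a black bar for each group mean (n = 3) and a grey band for the range of the Trp control readings, 4.02 to 20.7. Olig1 and Olig2 rise in every pair to between 499 and 1213 with Ag1.3, and Olig3 stays between 25.8 and 39.4.

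Over all genes, limma's test called 256 of 18193, which is 1.41%, with 197 (1.08%) higher and 59 (0.324%) lower with Ag1.3. That split depends on the overall level: scaled to the hybridization spikes, whose mean log2 intensity was 0.19 higher in the Ag1.3 arrays, 286 genes were higher and 1380 lower, and the median of all genes stood at -0.16. Of the 3 Olig genes 2 were called, both higher, and both were called under that scaling too, at 3.04 for Olig1 and 4.49 for Olig2. Groups that do not overlap, as seen for Olig1 and Olig2, were found for 11.8% of all genes, of which 6.44% of all genes had the Ag1.3 arrays above and 5.37% below. Tested as probe sets, among 45037 of which 0.515% were called (0.426% higher and 0.0888% lower), Olig1 had adjusted p = 0.00619 and Olig2 adjusted p = 0.0108. Olig2 ranked first of all genes by increase and Olig1 sixth, at rank 6. Over 12 other settings Olig2 kept rank 1 and Olig1 ranked between 5 and 7.

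The size of the Olig2 change rested on the pseudocount more than that of Olig1. With a pseudocount of 1, 4 or 64 in place of 16 the log2 change was 5.57, 5.32 or 3.39 for Olig2 and 3.49, 3.43 or 2.62 for Olig1. With a pseudocount of 1 neither passed limma's test (adjusted p = 0.123 for Olig2 and 0.0972 for Olig1), and with 4 Olig2 did not (adjusted p = 0.0675). Without replicate 1, 2 or 3 the change was 4.34, 4.44 or 5.12 for Olig2 and 3.03, 3.23 or 3.38 for Olig1, and both passed each time among genes. Without replicate 3 the change of Olig3 was -0.028, and scaled to the spikes it was -0.11, neither past the threshold, so its sign is not settled.

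**Figure D2:**
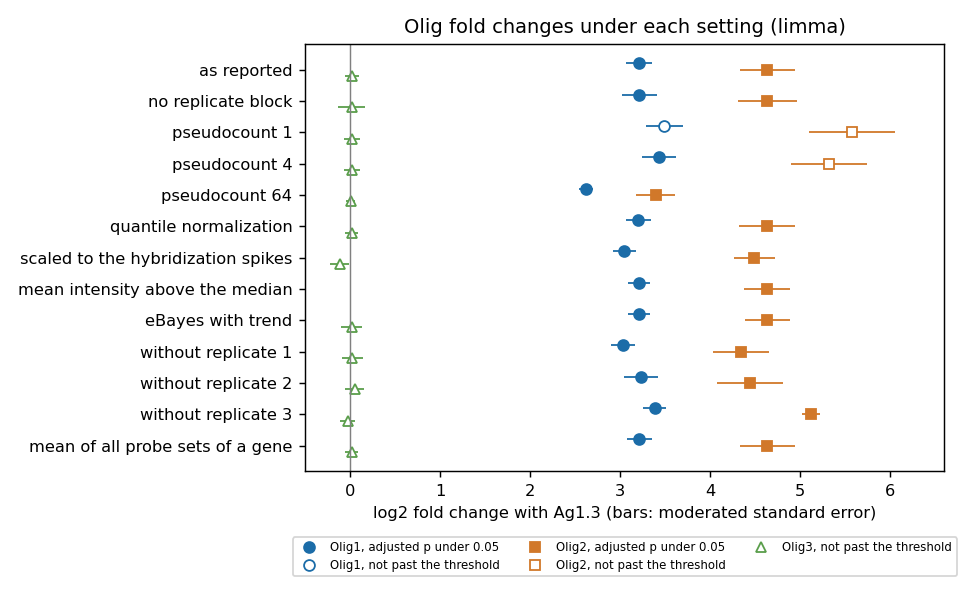
Log2 fold change with Ag1.3 of Olig1, Olig2 and Olig3 as reported and under 12 other settings, with bars for limma's moderated standard error, filled marks for adjusted p under 0.05 and open marks otherwise. Olig2 moves between 3.39 and 5.57 and Olig1 between 2.62 and 3.49, while Olig3 stays between -0.11 and 0.05 in the 11 settings that kept it.

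Olig2 changed more than Olig1 in each pair, by 1.64, 1.84 and 0.79 on the log2 scale, with a mean of 1.42 ± 0.56 (SD, n = 3). The 2 genes were read by different probe sets, and with 3 pairs an exact sign-flip test cannot give a two-sided p below 0.25. Against Olig3, the change of Olig2 was larger by 4.62 ± 0.92 and that of Olig1 by 3.20 ± 0.41 (SD, n = 3 each), again in 3 of 3 pairs. Pair 3 had the smallest change for both Olig1 and Olig2, and in both genes RA replicate 3 was the highest of the RA arrays.

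The Ag1.3 cultures differed from each other in Olig2 and hardly in Olig1. The highest Olig2 reading with Ag1.3 was 2.43 times the lowest, and the highest Olig1 reading was 1.10 times the lowest. On the log2 scale the SD over Ag1.3 arrays was 0.63 for Olig2 and 0.069 for Olig1. In RA the SD on this scale, which damps low values, was 0.37 for Olig2 and 0.40 for Olig1. On the deposited intensities the highest RA reading was 2.90 times the lowest for Olig2 and 1.98 times for Olig1.

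Ag1.3 replicate 3, the lowest in Olig2, was also the lowest in 5 of the 6 called genes of the motor neuron lineage. Over all 11 measured genes of that list it was the lowest in 6 and the highest in 4. Neurog2, the proneural factor that acts with Olig2 in motor neuron progenitors, read 1409, 936 and 348 in Ag1.3 replicates 1, 2 and 3, and Lhx3, a LIM factor of new motor neurons, read 384, 244 and 123. Nkx6-1, a ventral homeodomain factor that acts upstream of Olig2, read 848, 707 and 536. Nkx2-2, a repressor of Olig2 in the domain ventral to it, read 261, 170 and 306 and did not follow this order. Foxa2, a factor of the floor plate, read 398, 231 and 591, with its highest value in the array where Olig2 was lowest. The same array was the highest of the Ag1.3 arrays in 5 of 5 markers of pluripotent cells and the lowest in 4 of 6 markers of neural progenitors. RA replicate 3 likewise was the highest RA array in all of these pluripotent markers, with Nanog at 591, 828 and 1007 in RA. It was the lowest RA array in each of these progenitor markers except Fabp7, yet the highest in Olig2. The part of this mix in the spread of Olig2 was not tested.

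**Figure D3:**
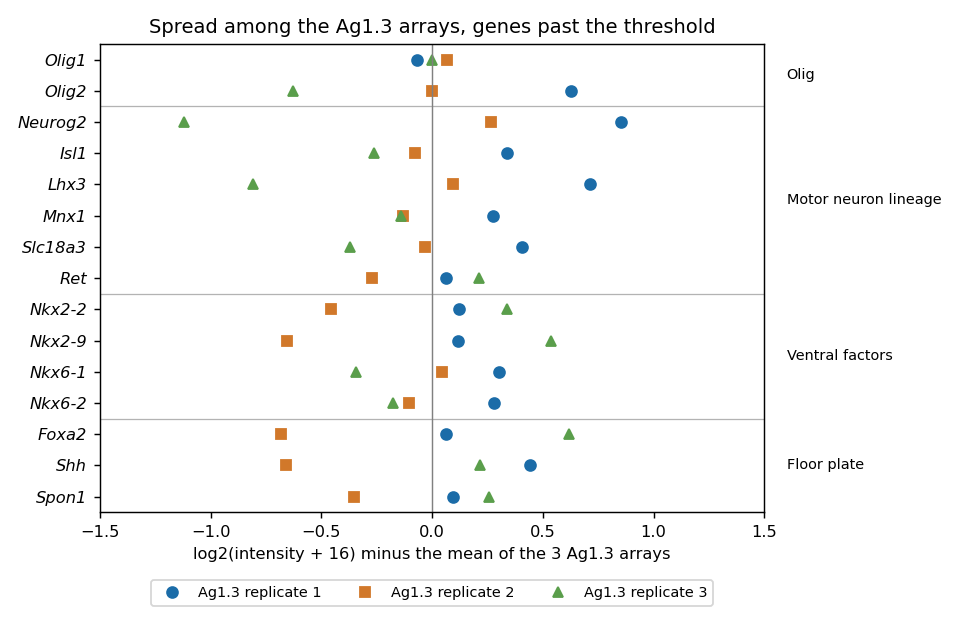
Each Ag1.3 array's log2(intensity + 16) minus the mean of the 3 Ag1.3 arrays, for Olig1, Olig2 and the genes called higher in the motor neuron, ventral and floor plate lists, with a mark per replicate. Olig2 spans -0.63 to 0.63 with replicate 3 lowest, as for Neurog2, Lhx3 and Nkx6-1, Olig1 spans -0.07 to 0.07, and Foxa2 has replicate 3 highest at 0.62.

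The genes nearest to each Olig gene over the 6 arrays were taken by the root mean square difference of their log2 values, each gene centred on its own mean, among genes above the median level. These distances describe 6 arrays in 2 groups, so a shared response to Ag1.3 brings genes close. For Olig2 the nearest gene was Nkx6-1 at 0.32, followed by Isl1 at 0.60, Neurog2 at 0.61, Olig1 at 0.85 and Nkx2-2 at 0.89. For Olig1 it was Nkx2-2 at 0.31, followed by Isl1 at 0.34, Clstn2 at 0.38, Nkx2-9 at 0.47 and Spon1 at 0.49. Olig1 and Olig2 had Isl1 and Nkx2-2 in common, and neither was the other's nearest gene. For Olig3 the nearest were Tob2, Nkap, Rab11fip2, Cacfd1 and Gtf3c6, at 0.030 to 0.039. With another pseudocount, with quantile normalization, or when 1 pair was left out, none of these 5 was still among the nearest. Of the 5 nearest to Olig1, 3 stayed without replicate 3.

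The neighbours of the Olig genes on the RefSeq map did not pass the threshold as tested, and Ifnar2 and Perp passed in some other settings. Olig2 and Olig1 are next to each other among protein-coding genes, with 4932438H23Rik and Paxbp1 on the Olig2 side and the receptor genes Ifnar2 and Il10rb on the Olig1 side. Ifnar2, a subunit of the interferon receptor, read 107, 102 and 114 in RA and 136, 140 and 146 with Ag1.3, a log2 change of 0.34 with adjusted p = 0.118 in limma's test. Its groups did not overlap, which 11.8% of all genes share, and it passed in 2 of 12 alternatives, with a pseudocount of 64 and among genes above the median level. Paxbp1 had a log2 change of 0.24, Il10rb 0.19 and 4932438H23Rik -0.0059, with unadjusted p of 0.0227, 0.132 and 0.975. The noncoding gene Gm52261, annotated between Olig2 and Olig1, had no probe set of its own name. Around Olig3, Perp had a log2 change of -0.67 (adjusted p = 0.0917 in limma's test) and passed in 3 of 11 alternatives, with a pseudocount of 64, when scaled to the spikes and with a variance prior that follows intensity. Tnfaip3 had 0.059, Ifngr1 0.042 and Il22ra2 0.045. All 6 readings of Il22ra2 lay within the range of the Trp controls or below it.

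Beside the Olig family, 18 lists of 115 genes that work with it, bound its domains or mark other cells were counted, of which 107 genes were measured. Of these, 22 passed limma's threshold as higher and 10 as lower, and in the counts below rose and fell mean this. Counts at p under 0.05 before adjustment stand beside 14.9% of all genes (2717 of 18193) in limma's test. Without replicate 1, 2 or 3 that number was 1570, 1986 or 3039 of all genes, and without the block 1350. Among hedgehog targets, which the pathway switches on in responding cells, 2 of 4 passed the threshold, both higher. All 4 had a mean change above 0 and p under 0.05 in limma's test before adjustment. Their median log2 change was 0.93 against -0.0071 over all genes. Ptch1, the hedgehog receptor, read 1123, 1304 and 2018 in RA and 3413, 2834 and 4025 with Ag1.3, a log2 change of 1.23 (SE 0.13, limma adjusted p = 0.0232), well under the 4.63 of Olig2 on this scale. RA replicate 3 was highest of the RA arrays in Ptch1, as in Olig1 and Olig2. Rab34 rose by 0.65, and Gli1, whose probe set may or may not read the transgene, had 1.21 and adjusted p = 0.0795. Hhip had 0.59 with adjusted p = 0.093 in limma's test. When 1 pair was left out, or the block was dropped, limma called 0 of the 4, and 4 had p under 0.05 before adjustment each time.

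The factors that bound the Olig2 domain moved in both directions. All 4 ventral factors rose, with a median log2 change of 2.93: Nkx6-1 by 4.14, Nkx2-2 by 3.22, Nkx2-9 by 2.65 and Nkx6-2 by 1.35. All RA readings of Nkx2-2 and Nkx6-2 lay within the range of the Trp controls or below it, so the size of these changes depended on the pseudocount. Over the alternatives Nkx2-2 ran from 2.01 to 4.31 and Nkx6-2 from 0.55 to 2.92. Nkx6-1 read 11.1 in RA replicate 2, also within that range, and ran from 3.08 to 4.87. None of the 4 ventral factors passed with a pseudocount of 1 or 4, where limma called 0 and 19 of all genes. Without replicate 1, 2 or 3, 3, 3 or 1 of them passed, the last being Nkx6-1. Of 5 factors of the domains dorsal to Olig2, 3 fell: Irx3, which Olig2 represses across the border of its domain, read 2007, 1528 and 748 in RA and 899, 789 and 288 with Ag1.3, a log2 change of -1.14 (adjusted p = 0.013). Irx5 was 2.01-fold lower, Dbx1 fell by 3.29 on the log2 scale, and Pax6 had -0.48 with adjusted p = 0.0531. Olig2 was higher and Irx3 lower with Ag1.3 in every pair, which restates their directions, and a link between them was not tested. Irx3 in RA replicate 3 overlapped the Ag1.3 arrays. Of the 5, 0, 2 or 1 passed limma's test without replicate 1, 2 or 3 and 0 without the block, with 4, 4 or 5 and 1 with p under 0.05 before adjustment.

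Of 11 genes of the motor neuron lineage, which follows Olig2, 6 rose, with a median of 1.39. Isl1, a LIM factor needed for motor neurons, rose by 3.65, Neurog2 by 3.59 and Lhx3 by 2.86 on the log2 scale, all less than Olig2 and, for Isl1 and Neurog2, more than Olig1. Slc18a3, the vesicular acetylcholine transporter, rose by 2.22, and Mnx1, a motor neuron homeodomain factor, by 1.39, while Ret, a receptor of growth factors of motor neurons, rose 3.99-fold. All RA readings of Lhx3 and Slc18a3 lay within the Trp range, and over the alternatives Lhx3 ran from 1.78 to 3.62 and Slc18a3 from 1.26 to 3.12. With a pseudocount of 1 limma called 0 of the 11, and with 4 it called 1, Isl1. The other cholinergic genes of the list did not pass limma's test. Chat, which makes acetylcholine, was higher in every pair and had 0.35 with adjusted p = 0.129, and Slc5a7, the choline transporter, had 0.018. Without replicate 1, 2 or 3, 2, 1 or 5 of the 11 passed.

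No gene of the oligodendrocyte lineage, the later setting of Olig1 and Olig2, passed by limma: 14 were measured, and 3 had p under 0.05 before adjustment. The list's median was 0.046. Mag, a myelin glycoprotein, had a log2 change of -0.48 (adjusted p = 0.0609) and Mbp, myelin basic protein, 0.41 (adjusted p = 0.0872). Mbp passed limma's test with a pseudocount of 64, among genes above the median level and with a variance prior that follows intensity. Over its 12 alternatives Mbp ran from 0.16 to 0.45, with limma's adjusted p from 0.00935 to 0.432. Mag passed when scaled to the spikes, and over its alternatives it ran from -0.77 to -0.22, with limma's adjusted p up to 0.391. Of the early markers, Sox10 read 102 to 136 in RA and 109 to 147 with Ag1.3, Pdgfra 35.3 to 56.7 and 24.2 to 64.4, and Cspg4 31.4 to 42.8 and 32.3 to 44.1. Their groups overlapped while Olig1 and Olig2 rose, and 4 of the 14 genes had all 6 readings within the range of the Trp controls or below it.

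The genes of the Olig3 domains gave a mixed picture around Olig3. Of 9 genes of dorsal progenitors 2 fell, Pax3 by 3.32 and Pax7 by 3.34 on the log2 scale, both factors of dorsal progenitors. All their Ag1.3 readings lay within the Trp range or below it, and over the alternatives Pax3 ran from -4.43 to -2.12 and Pax7 from -4.83 to -2.03. None of the 9 passed limma's test with a pseudocount of 1 or 4. Pax7 also did not pass without the block, with quantile normalization or with the mean of all its probe sets. Neurog1, a proneural factor of dorsal and other progenitors, read 717, 551 and 237 in RA and 867, 673 and 277 with Ag1.3 (log2 change 0.25, adjusted p = 0.202), and Atoh1, the proneural factor of the most dorsal interneurons, 35.8 to 48.9 and 36.3 to 45.2. The groups of Atoh1 overlapped, as those of Olig3 did. Without replicate 1, 2 or 3, 1, 0 or 2 of the 9 passed limma's test, with 5, 6 and 6 with p under 0.05 before adjustment, and 6 fell when scaled to the spikes. Neurog1 alone of this list had a change above 0. It passed as higher among genes above the median level and with a variance prior that follows intensity. Of 7 genes of the dorsal interneurons that Olig3 progenitors make, limma called 0, and 0 had p under 0.05 before adjustment, with Barhl2 at -0.18 and Lhx2 at 0.25. On the ventral side, Sim1, a factor of V3 neurons, had -0.12 (adjusted p = 0.637), while 3 of 6 genes of this list rose, the floor plate genes Spon1 by 2.73, Foxa2 by 2.35 and Shh by 1.55. Of these, 2, 3 or 2 passed without replicate 1, 2 or 3 and 1 without the block. Shh also did not pass with the mean of all its probe sets, and over the alternatives it ran from 0.78 to 1.86.

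Among the genes of E proteins and Id proteins, Id3 alone passed. The E proteins Tcf3, Tcf4 and Tcf12, with which bHLH factors form dimers, had log2 changes of 0.022, 0.088 and 0.039. Of the Id genes, whose products bind E proteins and keep them from other bHLH factors, Id3 fell by 0.72 (adjusted p = 0.0204), from 1000 to 1088 in RA to 620 to 632 with Ag1.3, with no overlap. Id3 was the 1 of 7 genes of this list to pass, and Id2 had -0.57, Id4 0.51 and Id1 0.13. With 1 pair left out, limma called 0 of the 7, with 1, 1 and 3 with p under 0.05 before adjustment. It called 2 of the 7 lower when scaled to the spikes, among genes above the median level and with a variance prior that follows intensity. Bhlhe23, a bHLH gene close to the Olig family, had 0.37 with adjusted p = 0.13, against 3.21 for Olig1 and 0.015 for Olig3.

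Among Hes and Hey genes, several of which act downstream of Notch and hold back neurogenesis, 2 of 6 passed limma's test. Hey2 rose by 1.84 and Hey1 by 1.31 on the log2 scale. In all, 4 of the 6 had p under 0.05 before adjustment, all of them higher with Ag1.3. Hes5, which is high in dividing progenitors, read 1191, 951 and 283 in RA and 1516, 1435 and 390 with Ag1.3, a log2 change of 0.46 with adjusted p = 0.081. Hes1 had -0.15. In Hes5 the arrays of replicate 3 were lowest in both groups, while in Olig2 replicate 3 was highest in RA and lowest with Ag1.3. Without replicate 1, 2 or 3, 1, 2 or 0 of the 6 passed limma's test, with 4, 4 and 5 with p under 0.05 before adjustment.

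The labelled cell type was checked by its markers. The neural progenitor markers Sox1, Sox2, Sox3, Nes, Fabp7 and Vim were all read in both groups, with Sox2 at 2699 to 2900 in RA and 2462 to 2661 with Ag1.3, and limma called 0 of 6, 2 of them with p under 0.05 before adjustment. Markers of pluripotent cells were present too, with summed intensities of 4350 to 7215 in RA and 2626 to 5563 with Ag1.3, none of the 5 at 0, and Pou5f1 fell by 0.68, the 1 to pass. Limma called 0 of the 5 when 1 pair was left out or with a pseudocount of 1 or 4, with 5 at p under 0.05 before adjustment each time, and 0 without the block, with 0 at that level. It called all 5 lower with a pseudocount of 64, when scaled to the spikes, among genes above the median level and with a variance prior that follows intensity. All 5 had p under 0.05 before adjustment and lower readings with Ag1.3 in the mean, and their part in the rise of Olig1 and Olig2 was not tested. Median intensities of the arrays were 48.7 to 52.5, and the actin control, which compares signal near both ends of the RNA, gave 3' to 5' ratios of 1.46 to 1.51 for RA cultures and 1.33 to 1.63 for Ag1.3 cultures.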

How the data were processed

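Per the labels' protocols, biotinylated cRNA was made from 2.5 ug of total RNA and hybridized to 1 array per culture. The authors deposited probe set intensities on a linear scale. How probe sets were summarised and scaled, and any genome build, is not given in the sources used here. Of 45101 probe sets, 64 controls were left out. The platform annotation gave 34945 of the rest 1 symbol, 932 several, and 9160 were not listed. For a gene with several, the one of highest mean intensity was used. Values were transformed to log2(intensity + 16), the scale of all fold changes. Tests were two-sided, by limma 3.58.1 in R 4.3.3 (lmFit, eBayes), with pairs as a block by their replicate number, Benjamini-Hochberg adjustment over all 18193 genes and a threshold of 0.05. SE is limma's moderated standard error. An exact permutation of 3 against 3 arrays cannot go below p = 0.1. The design states the pairing, and the correlation over genes of deviations from the group means was 0.538, 0.186 and 0.561 within pairs and -0.515 to 0.0741 between them. Nothing says that the pairs came from separate experiments, and the number of arrays limits precision. The p-values and intervals rest on the spread between these 3 pairs after limma moderated it by the spread of all genes. They are not a measure of the spread of the 3 pairs alone. Named genes were the Olig genes, the 2 protein-coding neighbours on either side, the 5 nearest profiles, and from each list all genes past the threshold or else the 2 with the smallest p; other genes were named after their values were seen. The members and lists were chosen with earlier results of these data known. Promoter windows are from RefSeq, build GRCm38.p6, and list no Olig1. The fit was tested on simulated data.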

Additional observations from a re-analysis of the deposited data

How the results depend on the processing

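Olig1 and Olig2 kept their direction under all 12 alternatives, and Olig1 passed among genes in 11 of them and Olig2 in 10. Not past limma's threshold were, with a pseudocount of 1, Olig1 (3.49) and Olig2 (5.57) in both the gene and the probe set fit, and with a pseudocount of 4 Olig2 (5.32) in both fits and Olig1 (3.43) in the probe set fit. In the probe set fit, Olig2 did not pass without any 1 of the pairs (4.34 to 5.12), nor Olig1 without pair 2 or 3 (3.03 to 3.38 over the 3 pairs left out). Without replicate block the calls stood (adjusted p = 0.00298 for Olig1 and 0.00416 for Olig2), while 87 genes in place of 256 were called and 17 of the list genes in place of 32. Olig3 turned to -0.114 when scaled to the spikes and to -0.0281 without replicate 3, with 0.0501 without replicate 2, and the filter on low values left it out. The neighbours with changes near 0 turned as well: 4932438H23Rik to 0.0806 with a pseudocount of 1, 0.0424 with 4 and 0.0231 with the mean of all probe sets of a gene, and Tnfaip3 to -0.0888 and Ifngr1 to -0.129 when scaled to the spikes. Without a pair, 4932438H23Rik ran from -0.257 to 0.213, Tnfaip3 from -0.0605 to 0.142, Ifngr1 from -0.0028 to 0.0749 and Il22ra2 from -0.0951 to 0.197. The count of all genes called by limma was 0 with a pseudocount of 1 (2412 at an unadjusted p under 0.05), 19 with 4, 819 with 64, 1666 when scaled to the spikes, 904 among genes above the median level, 888 with a variance prior that follows intensity, and 40 to 68 without a pair. The count among list genes was 0 with a pseudocount of 1 (59 at an unadjusted p under 0.05), 6 with 4, 49 when scaled to the spikes and 11 to 15 without a pair. The causes were not tested. Signal over background limits Olig2, Nkx2-2, Nkx6-2, Lhx3 and Slc18a3 in RA, Nkx6-1 in RA replicate 2, Pax3 and Pax7 with Ag1.3, and Olig3 in all arrays.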

Other observations

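Genes shared by most neurons rose beside Olig1 and Olig2: 5 of 6 passed limma's test, with a median log2 change of 1.06, among them Elavl4, an RNA-binding protein of neurons, by 1.70 and Stmn2, a microtubule regulator of growing axons, by 1.55, with Tubb3 at 1.22, Elavl3 at 0.91 and Dcx at 0.86. Ag1.3 replicate 3, the lowest in Olig2, was the lowest Ag1.3 array in all 5 of these. RA replicate 3 was likewise the lowest RA array in each of them, while in Olig2 it was the highest RA array. Without any 1 of the pairs, or without the block, 2 of the 6 passed. Dcx also did not pass with the mean of all its probe sets, and over the alternatives it ran from 0.49 to 0.97. Of 4 measured genes of interneurons of intermediate and dorsal origin, Lhx1 was 2.46-fold lower and Lhx5 2.10-fold lower, both LIM factors, and limma called 0 of the 4 without replicate 1, without replicate 2 or without the block, with 2 with p under 0.05 before adjustment each time.

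Markers of other lineages moved less than Olig1 or Olig2. In the endoderm list Sox17 fell by 1.21, the 1 of 5 to pass, and limma called 0 without any 1 of the pairs, with 1, 1 and 2 with p under 0.05 before adjustment. Summed endoderm intensities were 173 to 345.5 in RA and 131 to 232 with Ag1.3. Limma called 0 of 5 genes of mesoderm and endothelium, and 3 had p under 0.05 before adjustment, among them Kdr at 0.57 and Tbx6 at -0.25. Limma called 0 of 4 neural crest genes, and 0 had p under 0.05 before adjustment, with Foxd3 at 0.23 and Tfap2a at -0.13.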
